A study of Mus musculus with 6 samples.

Results

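The secretory lineage transcription factors examined here are 10 genes, *Atoh1*, *Gfi1*, *Spdef*, *Klf4*, *Neurog3*, *Neurod1*, *Insm1*, *Foxa1*, *Foxa2* and *Bhlha15*, chosen by name for their place in the specification of secretory cells of the intestine. They are 10 of the 34866 genes in the deposited table, and each was found once by its gene symbol. RNA-seq was performed on adenomas excised from the intestines of C57BL/6J mice aged 100 to 120 days, with 3 libraries from Apc1322T/+ animals and 3 from ApcMin/+ animals. Both alleles are germline truncations of *Apc*, the scaffold that holds β-catenin in check. Every animal carried 1 mutant and 1 wild-type copy, and tumours in such animals arise after the wild-type copy is lost or mutated. ApcMin encodes a short truncated protein, and Apc1322T a longer one that keeps some β-catenin binding sites. RNA of several extractions from the same mouse was typically pooled, and each library is bulk tissue in which tumour epithelium is mixed with stroma and immune cells. No library of normal mucosa entered the comparison, which asked whether adenomas of both models carry similar RNA profiles.

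Cells leaving the intestinal crypt take either an absorptive or a secretory fate. Notch signalling between neighbours decides the choice: Notch activity induces *Hes1*, which represses *Atoh1*, and cells that escape Notch keep *Atoh1* and become goblet, Paneth, enteroendocrine or, in part, tuft cells. Downstream of *Atoh1*, *Gfi1* favours goblet and Paneth cells over endocrine cells, *Spdef* matures goblet and Paneth cells, and *Neurog3* starts an endocrine cascade that runs through *Neurod1* and *Insm1*. Wnt signalling, which is switched on in *Apc*-mutant adenomas, also favours Paneth cell differentiation.

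The libraries held 23132461 to 33518324 estimated counts, so that 3 counts corresponded to 0.0838 to 0.143 CPM, counts scaled to a common library size after TMM normalisation. Levels are given below as log2 CPM, and a positive log2 fold change means a higher level in ApcMin adenomas. In the whole table, 0 of 16536 tested genes had an adjusted p under 0.01 (0% by the quasi-likelihood test of edgeR, Benjamini-Hochberg adjusted), 1 had an adjusted p under 0.05, and 194 passed 0.01 in DESeq2. At an unadjusted p under 0.05, edgeR called 2495 genes (15.1%). The epithelial origin of the tissue was clear, since all 7 epithelial markers (*Vil1*, *Cdx1*, *Cdx2*, *Epcam*, *Cdh1*, *Krt8* and *Krt19*) were measured, and their summed level was 11002, 12778 and 13153 CPM in the Apc1322T libraries against 9400.4, 10477 and 8945.5 CPM in the ApcMin libraries. This sum was lower in each ApcMin library than in any Apc1322T library, while the sum of 8 fibroblast and smooth muscle genes was 1257, 519.8 and 791.3 CPM against 2455.5, 987.4 and 1211.9 CPM. Some libraries stood apart. Across genes, Apc1322T replicate 1 correlated more with each ApcMin library (Spearman's rho 0.9804, 0.9771 and 0.9822) than with its own genotype (0.9765 and 0.9759). ApcMin replicate 2 correlated best with Apc1322T replicate 3 (0.9823, against 0.9817 and 0.9735 within ApcMin). The libraries thus did not all group by genotype. ApcMin replicate 1 alone held high counts of 5 pancreatic digestive enzymes (*Ctrb1* 2679 counts against 2 to 16 in the other libraries). In bulk samples of this kind, fewer cells of a type and less RNA per cell cannot be told apart.

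All 10 factors were detected in every library and passed the filter on low counts, over a wide range of levels. Scaled per kilobase of exon, so that genes can be compared with each other, *Klf4* was at 67.6 ± 20.9 CPM per kb (SD, n = 6), *Spdef* at 32.2 ± 10.5 and *Foxa1* at 24.5 ± 2.53. *Atoh1* followed at 5.56 ± 1.69 CPM per kb and *Foxa2* at 2.52 ± 1.52. *Gfi1* (1.35 ± 0.36) and *Bhlha15* (1.35 ± 0.35) lay near each other, and the endocrine factors *Insm1* (0.31 ± 0.13), *Neurog3* (0.31 ± 0.25) and *Neurod1* (0.22 ± 0.09) were the lowest. Among all tested genes, *Klf4* sat at percentile 94.2, *Spdef* at 87.9, *Foxa1* at 84.4, *Atoh1* at 54.1, *Foxa2* at 36.8 and *Gfi1* and *Bhlha15* at 26.2, and the endocrine cascade at percentile 9.1 or below. The order of neighbours held in all 6 libraries for *Klf4* over *Spdef*, *Foxa1* over *Atoh1* and *Bhlha15* over *Insm1*. It was not fixed at the low end: *Neurog3* exceeded *Neurod1* in 3 of 6 libraries and *Gfi1* exceeded *Bhlha15* in 4, so these pairs did not differ beyond their spread, and the remaining neighbours kept their order in 5 of 6.

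**Figure D1:**
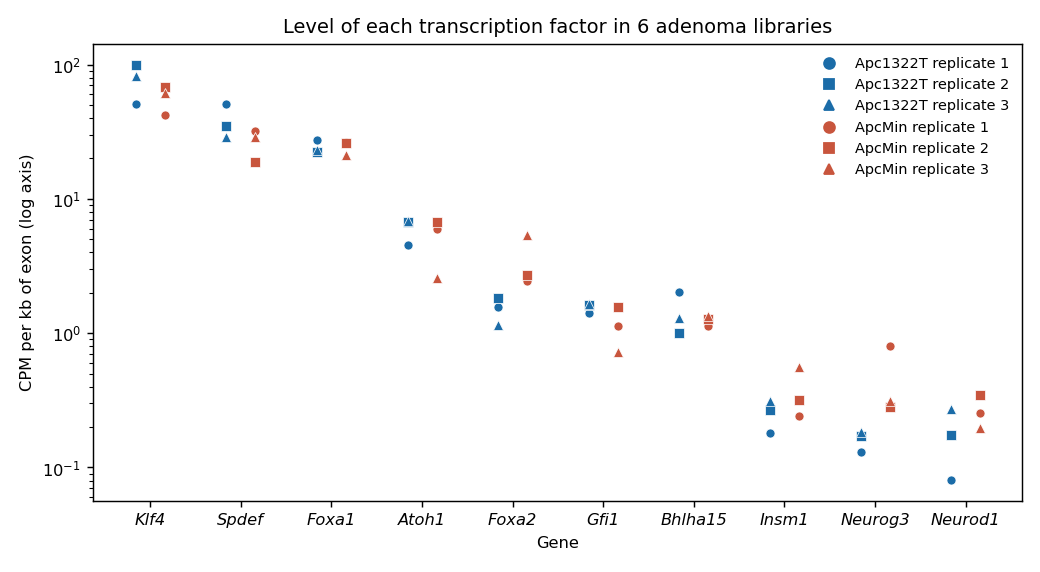
Level of each of the 10 factors in CPM per kilobase of exon (log axis) in the 3 Apc1322T libraries (blue) and the 3 ApcMin libraries (red), with a marker shape for each replicate number and genes ordered by their mean. Levels run from 67.6 CPM per kb for *Klf4* to 0.22 for *Neurod1*, and the colours separate only for *Neurog3* and *Foxa2*.

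None of the 10 factors differed between the genotypes at an adjusted p under 0.01 or under 0.05. Of the 10, 5 were higher and 5 lower in ApcMin, with a median log2 fold change of −0.095 beside 0.017 over all tested genes. *Neurog3* and *Foxa2* had an unadjusted p under 0.05, 2 of 10 against 15.1% of all tested genes. The same 2 were the only members whose ApcMin and Apc1322T libraries did not overlap, both with ApcMin higher. Libraries did not overlap for 21.0% of all tested genes, and ApcMin was the higher genotype for 11.0%. The share of members that stood out was therefore close to that of genes in general, and the 2 genes are described by their own values.

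*Atoh1*, the basic helix-loop-helix factor needed for all secretory cells (ENSMUSG00000073043, chromosome 6, 64729125 to 64731245, plus strand, GRCm38), was counted 264, 299 and 332 times in the Apc1322T libraries and 454, 361 and 173 times in the ApcMin libraries. On the log2 CPM scale these were 3.29, 3.84 and 3.87 against 3.67, 3.83 and 2.47. ApcMin replicate 3 lay below the other 5 libraries, which ran from 3.29 to 3.87. The log2 fold change was −0.25 ± 0.37 (SE; adjusted p = 0.758 by the quasi-likelihood test of edgeR, Benjamini-Hochberg adjusted), and it was 0.069 without ApcMin replicate 3.

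*Gfi1* is a zinc finger repressor downstream of *Atoh1* (ENSMUSG00000029275, chromosome 5, 107716657 to 107726036, minus strand). The log2 CPM of *Gfi1* was 2.19, 2.38 and 2.41 in Apc1322T and 1.89, 2.33 and 1.25 in ApcMin adenomas, again lowest in ApcMin replicate 3. The 2 genes did not move together in every library. Apc1322T replicate 1 lay above ApcMin replicate 1 for *Gfi1* and below it for *Atoh1*. The log2 fold change was −0.45 ± 0.30 (adjusted p = 0.487, edgeR), and it was −0.21 without ApcMin replicate 3 and −0.74 without ApcMin replicate 2. Measured as the root mean square difference of centred log2 CPM over the 6 libraries, *Atoh1* and *Gfi1* (0.218) were the closest of the 45 pairs that the 10 factors form. Each had closer genes outside the set, the nearest at 0.0731 for *Gfi1* and 0.124 for *Atoh1*. The ratio of *Gfi1* to *Atoh1*, per kilobase, was 0.308, 0.240 and 0.241 in Apc1322T and 0.191, 0.232 and 0.281 in ApcMin libraries, a range that overlapped between genotypes.

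*Spdef*, an ETS factor that matures goblet and Paneth cells (ENSMUSG00000024215, chromosome 17, 27714352 to 27728955, minus strand), was an abundant transcript with 1108 to 3183 counts. Its log2 CPM was 6.87, 6.32 and 6.05 in Apc1322T and 6.20, 5.45 and 6.05 in ApcMin libraries. The lowest value was in ApcMin replicate 2 and the highest in Apc1322T replicate 1, and the genotypes overlapped. The log2 fold change was −0.52 ± 0.27 (adjusted p = 0.397, edgeR), and it was −0.25 without Apc1322T replicate 1 and −0.33 without ApcMin replicate 2. *Spdef* did not follow *Atoh1* across the libraries: the ratio of the pair per kilobase was 11.1 both in Apc1322T replicate 1 and in ApcMin replicate 3, and 2.82 to 5.32 in the other libraries. *Klf4*, a zinc finger factor of goblet differentiation that is also found in other post-mitotic epithelial cells (ENSMUSG00000003032, chromosome 4, 55527143 to 55532466, minus strand), had a log2 CPM of 7.29, 8.25 and 7.97 against 7.01, 7.70 and 7.56. Its log2 fold change was −0.44 ± 0.28 (adjusted p = 0.474, edgeR), with the lowest value of each genotype in replicate 1. It was −0.22 without Apc1322T replicate 2, −0.26 without ApcMin replicate 1 and −0.66 without Apc1322T replicate 1.

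**Figure D2:**
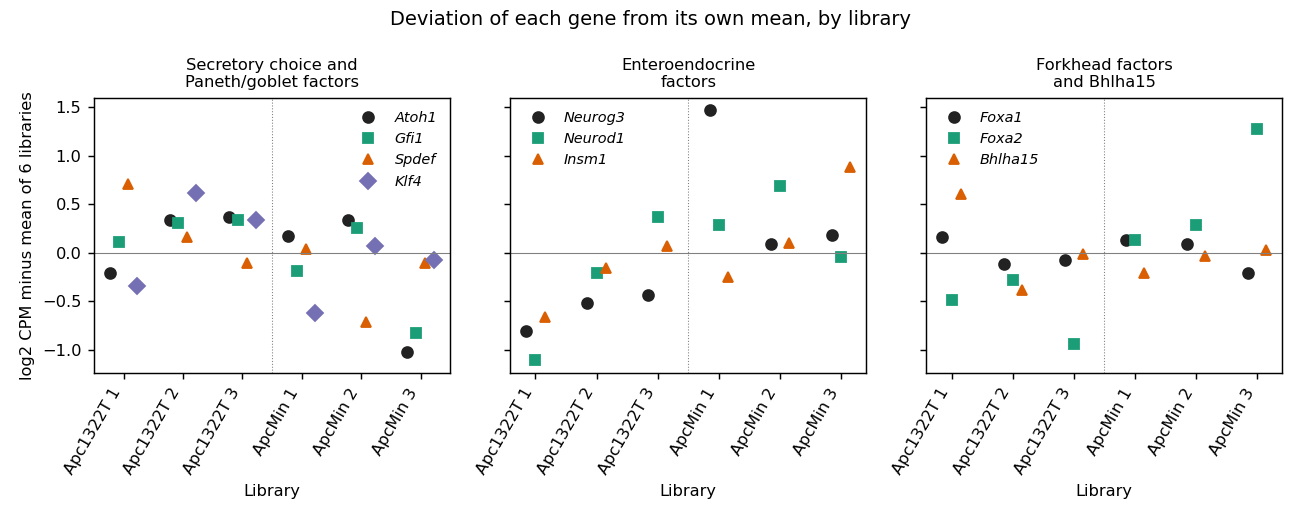
Deviation of each factor from its own mean over the 6 libraries, in log2 CPM, for the factors of secretory choice and of goblet and Paneth cells (left), the enteroendocrine factors (middle) and the forkhead factors with *Bhlha15* (right). *Atoh1* and *Gfi1* are both lowest in ApcMin replicate 3, *Neurog3* is highest in ApcMin replicate 1 and *Foxa2* is highest in ApcMin replicate 3.

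*Neurog3*, the factor that commits cells to the endocrine lineage (ENSMUSG00000044312, chromosome 10, 62133090 to 62134763, plus strand), was among the scarcest transcripts of the set. It was counted 6, 6 and 7 times in the Apc1322T libraries and 48, 12 and 16 times in the ApcMin libraries. With exact 95% Poisson intervals, which cover counting error only, 7 counts allowed 2.81 to 14.4, 12 counts 6.20 to 21.0 and 48 counts 35.4 to 63.6. The intervals of ApcMin replicates 2 and 3 thus overlapped those of Apc1322T, and that of ApcMin replicate 1 did not. In log2 CPM the values were −1.77, −1.48 and −1.40 against 0.50, −0.88 and −0.79. The log2 fold change was 1.52 ± 0.56, or 2.87-fold (adjusted p = 0.311 by the quasi-likelihood test of edgeR, Benjamini-Hochberg adjusted). Without ApcMin replicate 1 it was 0.85 ± 0.49 (adjusted p = 0.497, edgeR). That library was also the one with the pancreatic enzyme transcripts: *Cpa1*, *Cel*, *Pnlip* and *Cpb1* stood at 459, 286, 560 and 568 counts there and at 0 to 6 counts in every other library, while 2 of the 7 acinar genes, *Clps* and *Cela1*, showed no such excess. The sum of 8 myeloid and neutrophil genes was highest there too, at 430.1 CPM against 94.2 to 138.3 CPM in the other libraries, and all 8 had a positive log2 fold change with a median of 1.07. The part of pancreatic or myeloid cells in the *Neurog3* value was not tested. *Fam241b*, which overlaps *Neurog3* on the opposite strand, had a log2 fold change of −0.26 ± 0.15 (adjusted p = 0.432, edgeR), and the libraries were made with a kit that marks strand.

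*Neurod1*, which acts after *Neurog3* (ENSMUSG00000034701, chromosome 2, 79452521 to 79456751, minus strand), was counted 6, 10 and 17 times in Apc1322T and 25, 24 and 17 times in ApcMin libraries. The genotypes overlapped, and the log2 fold change was 0.60 ± 0.52 (adjusted p = 0.581, edgeR). It was 0.25 without Apc1322T replicate 1, 0.37 without ApcMin replicate 2 and 1.07 without Apc1322T replicate 3. The gene *Cerkl* overlaps *Neurod1* on the same strand, so strand cannot separate their reads. *Cerkl* was counted 0, 0 and 1 times in Apc1322T and 3, 1 and 2 times in ApcMin libraries. Whether both genes share exon sequence was not examined. *Insm1*, a zinc finger factor of endocrine differentiation (ENSMUSG00000068154, chromosome 2, 146221921 to 146225020, plus strand), was counted 15, 17 and 22 times against 27, 25 and 55 times, with a log2 fold change of 0.58 ± 0.44 (adjusted p = 0.531, edgeR). Its highest value, a log2 CPM of 0.86, was in ApcMin replicate 3, whereas *Neurog3* peaked in ApcMin replicate 1. Without ApcMin replicate 3 the log2 fold change of *Insm1* was 0.17, and without Apc1322T replicate 1 it was 0.39. All 3 endocrine factors had a positive log2 fold change, and none had an adjusted p under 0.05.

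*Foxa1* and *Foxa2* are related forkhead factors that act in goblet and endocrine differentiation. *Foxa1* (ENSMUSG00000035451, chromosome 12, 57540628 to 57546916, minus strand) was the steadiest of the 10, at a log2 CPM of 6.51, 6.23 and 6.27 in Apc1322T and 6.47, 6.43 and 6.14 in ApcMin libraries. Its log2 fold change was 0.016 ± 0.13 (adjusted p = 0.958, edgeR). *Foxa2* (ENSMUSG00000037025, chromosome 2, 148042877 to 148046969, minus strand) was counted 102, 91 and 62 times in Apc1322T and 206, 164 and 405 times in ApcMin libraries, or 1.93, 2.14 and 1.48 against 2.54, 2.71 and 3.69 in log2 CPM. Each ApcMin library lay above each Apc1322T library, and ApcMin replicate 3 lay far above the others. The log2 fold change was 1.21 ± 0.36, or 2.32-fold, with an adjusted p of 0.279 in edgeR and of 0.0544 in DESeq2. Without ApcMin replicate 3 it was 0.76 ± 0.27 (adjusted p = 0.485, edgeR).

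Per kilobase, *Foxa1* exceeded *Foxa2* by 17.3, 12.4 and 20.2 times in the Apc1322T libraries and by 11.0, 9.55 and 3.92 times in the ApcMin libraries. The ratio was lower in each ApcMin library than in any Apc1322T library, with *Foxa1* levels that overlapped between the genotypes and *Foxa2* levels that did not. ApcMin replicate 3, the library highest in *Foxa2*, was also the highest in the gastric genes *Muc5ac* (504 counts against 36 to 159), *Atp4a* (229 against 18 to 147) and *Pgc* (2514 against 404 to 1141). The gastric genes *Tff1*, *Tff2*, *Gkn1* and *Gkn2* were instead highest in Apc1322T replicate 2, and *Muc6* in Apc1322T replicate 1. *Gast* had 1 count in ApcMin replicate 1 and 0 elsewhere. The sum of the 9 gastric genes, in which *Muc6* was the largest, did not follow *Foxa2*. It was 1740.3, 1474.3 and 857.0 CPM in Apc1322T and 651.4, 559.9 and 1349.1 CPM in ApcMin libraries. The part of gastric cells in the *Foxa2* value was not tested.

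*Bhlha15*, also called Mist1, a basic helix-loop-helix factor of mature secretory cells that plasma cells and pancreatic acinar cells also express (ENSMUSG00000052271, chromosome 5, 144190286 to 144194441, plus strand), had a log2 CPM of 2.83, 1.84 and 2.21 in Apc1322T and 2.01, 2.19 and 2.25 in ApcMin libraries. The spread was within Apc1322T, whose replicates held both the highest and the lowest value. The log2 fold change was −0.21 ± 0.29 (adjusted p = 0.740, edgeR), and 0.12 without Apc1322T replicate 1. The sum of 8 plasma cell genes was 963.2, 745.2 and 813.0 CPM in Apc1322T against 750.6, 676.2 and 1349.3 CPM in ApcMin libraries. Most of this sum came from *Jchain* (6845 to 28340 counts) and *Sdc1* (7435 to 16665), whereas *Mzb1* had 86 to 349 counts. *Jchain* and *Mzb1* were highest in ApcMin replicate 3 and *Sdc1* in ApcMin replicate 1, so the sum is not a measure of plasma cells alone. The part of plasma cells in the *Bhlha15* level was not tested.

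The promoters of 3 factors are shown because they are the entry point of the lineage and the 2 genes whose libraries did not overlap. Each run is the 250 bases before the RefSeq start on GRCm38.p6, written 5′ to 3′ on the strand of the gene, from chr6:64728875-64729124 for *Atoh1* (plus strand), chr10:62132840-62133089 for *Neurog3* (plus strand) and chr2:148046970-148047219 for *Foxa2* (minus strand). Capitals mark the letters CANNTG (the E-box read by basic helix-loop-helix factors), CACNAG (the N-box read by Hes proteins) and CTTTGAT (a core read by TCF factors of the Wnt pathway), searched on both strands.
Atoh1: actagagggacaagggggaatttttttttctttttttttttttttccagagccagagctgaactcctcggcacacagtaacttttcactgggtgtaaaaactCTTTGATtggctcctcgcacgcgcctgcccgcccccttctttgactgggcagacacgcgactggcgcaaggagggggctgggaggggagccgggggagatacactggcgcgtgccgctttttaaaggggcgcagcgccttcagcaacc
Neurog3: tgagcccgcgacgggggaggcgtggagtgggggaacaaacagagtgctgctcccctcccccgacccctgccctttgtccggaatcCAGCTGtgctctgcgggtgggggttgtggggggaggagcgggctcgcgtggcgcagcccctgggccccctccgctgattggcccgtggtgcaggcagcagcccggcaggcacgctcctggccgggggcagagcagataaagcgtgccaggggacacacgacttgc
Foxa2: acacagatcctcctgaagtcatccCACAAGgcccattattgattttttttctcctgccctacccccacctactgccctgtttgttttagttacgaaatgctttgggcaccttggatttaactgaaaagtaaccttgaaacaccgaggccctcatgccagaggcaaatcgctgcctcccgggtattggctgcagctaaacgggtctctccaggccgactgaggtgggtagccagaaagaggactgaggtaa
The *Atoh1* window held 1 CTTTGAT, which 3.21% of 32851 promoters of the same length hold. The *Neurog3* window held 1 E-box, of the form CAGCTG, which 13% of promoters hold, and the *Foxa2* window held 1 CACNAG, which 36.7% hold. Over the 9 factors with a listed window, 6 held CANNTG beside 66.2% of all promoters, 1 held CACNAG and 1 held CTTTGAT. For *Foxa2* and *Gfi1*, with 3 and 2 listed windows, only the one nearest to the annotated 5′ end of the gene was used. These are matches of letters, and no binding was measured.

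Genes around the factors were read from 8 lists of Notch pathway genes, of other lineage factors and of lineage products, tuft cell and absorptive genes included. None of 91 tested genes had an adjusted p under 0.01, and 19 (20.9%) had an unadjusted p under 0.05 beside 15.1% of all genes, 10 higher and 9 lower in ApcMin. Of 15 tested Notch pathway genes, 11 were higher and 4 lower in ApcMin, and 3 of them had an unadjusted p under 0.05, all higher. These were the ligand *Jag2* (log2 fold change 0.80 ± 0.19), the glycosyltransferase *Lfng* (0.53 ± 0.13) and the receptor *Notch1* (0.26 ± 0.11), with adjusted p of 0.257, 0.262 and 0.327 by edgeR. The ligands *Dll1* (−0.31 ± 0.28) and *Dll4* (−0.06 ± 0.31) and the repressor *Hes1* (−0.09 ± 0.10) did not pass even the unadjusted threshold, and their adjusted p ran from 0.599 to 0.934 (edgeR). All 7 endothelial genes and all 8 fibroblast and smooth muscle genes were also higher in ApcMin. The part of these cells in the Notch pathway values was not tested.

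Of 10 other enteroendocrine factors tested, 8 were higher and 2 lower in ApcMin, with a median log2 fold change of 0.53. Only *St18* (1.61 ± 0.67; adjusted p = 0.328, edgeR) had an unadjusted p under 0.05, and it was counted 1, 8 and 7 times against 25, 18 and 24 times. Of 17 endocrine products, 8 were higher and 9 lower, with a median of −0.075. The neuropeptide precursor *Tac1* (0.63 ± 0.24), the prohormone-processing enzyme *Cpe* (0.63 ± 0.26) and the hormone *Pyy* (0.63 ± 0.26) were higher without overlap of the libraries, whereas *Chga* (−0.26 ± 0.19) and *Cck* (−0.45 ± 0.25) had negative values, and the adjusted p of these 5 ran from 0.311 to 0.513 (edgeR).

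**Figure D3:**
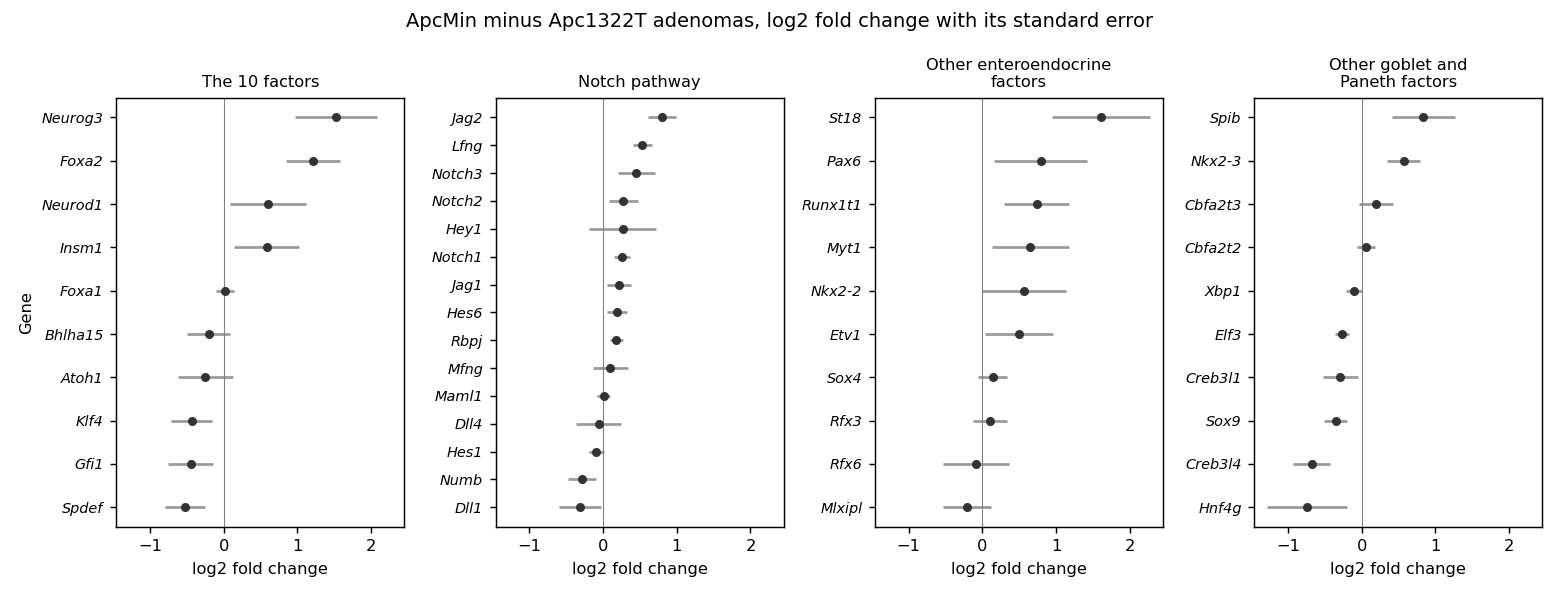
Log2 fold change (ApcMin minus Apc1322T) with its standard error for the 10 factors and for the tested genes of 3 related lists, ordered within each panel. *Neurog3* at 1.52 and *Foxa2* at 1.21 lie farthest from 0 among the 10 factors, and no gene plotted had an adjusted p under 0.01.

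Among 10 genes listed as other goblet and Paneth factors, 4 were higher and 6 lower, with a median of −0.19. Which cells of the bulk tissue expressed each of them was not tested. All 8 fibroblast and smooth muscle genes were higher in ApcMin, and their part in these values was not tested either. *Elf3* (−0.27 ± 0.10), *Creb3l4* (−0.68 ± 0.25) and *Nkx2-3* (0.57 ± 0.22) had an unadjusted p under 0.05, and *Sox9* (−0.35 ± 0.16) and *Xbp1* (−0.11 ± 0.11) did not. *Creb3l4* was among the 3 genes whose pattern over the 6 libraries was most like that of *Spdef*. Of 12 goblet products, 10 were lower in ApcMin and 2 higher, with a median of −0.47, and 5 of the 12 had an unadjusted p under 0.05, all lower. Named by the size of p, these were *Agr2* (−0.72 ± 0.15), *Tspan13* (−0.57 ± 0.13), *Fcgbp* (−0.74 ± 0.21), *Zg16* (−0.69 ± 0.29) and *Tff3* (−0.54 ± 0.23), with adjusted p of 0.257 to 0.330 by edgeR. The mucin *Muc2* had a log2 fold change of −0.51 ± 0.33 (adjusted p = 0.474, edgeR). Of 11 Paneth products, 8 were higher and 3 lower, with a median of 0.33, and *Lyz1* (0.61 ± 0.26) and *Habp2* (−0.87 ± 0.21) had an unadjusted p under 0.05. Summed goblet products were 6537.1, 9918.0 and 9679.5 CPM in Apc1322T and 6784.3, 6112.8 and 4460.6 CPM in ApcMin libraries, and these overlapped through Apc1322T replicate 1. The epithelial marker sum was lower in ApcMin as well, and its part in the goblet values was not tested.

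**Figure D4:**
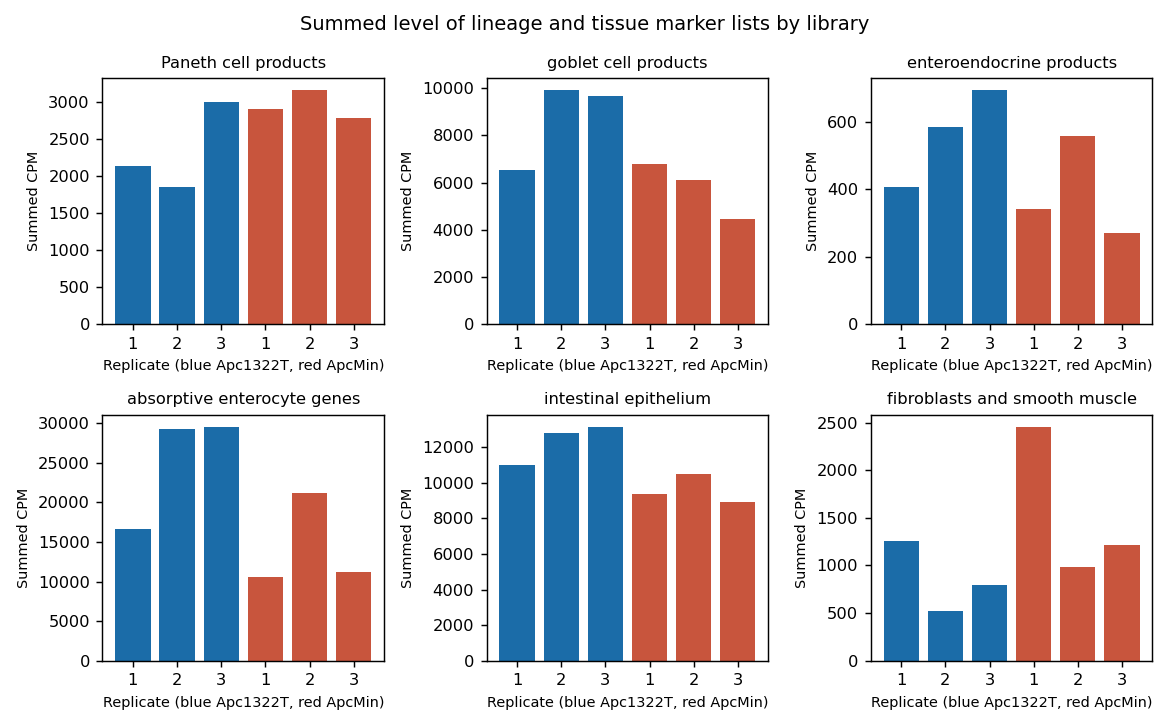
Summed CPM of the Paneth, goblet, enteroendocrine and absorptive lists, of the 7 epithelial markers and of 8 fibroblast and smooth muscle genes, by library (blue Apc1322T, red ApcMin, bars from 0). The epithelial sums are 8945.5 to 10477 CPM in ApcMin and 11002 to 13153 CPM in Apc1322T, and the goblet sums overlap.

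Genes most like each factor were named by the same root mean square difference over the 6 libraries. *Pglyrp1* (0.0899), *Creb3l4* (0.0995) and *Wfdc18* (0.101) were nearest to *Spdef*. The nearest gene was *Acnat1* (0.0731) for *Gfi1*, *Sncg* (0.124) for *Atoh1*, *Ncf4* (0.159) for *Neurog3*, *Mamld1* (0.112) for *Foxa2* and *Shank2* (0.0504) for *Bhlha15*. It was *Bcl11a* (0.0334) for *Foxa1*, *Cth* (0.0847) for *Klf4*, *Fbp1* (0.0901) for *Insm1* and the olfactory receptor gene *Olfr165* (0.0770) for *Neurod1*. Among 16536 genes and with 6 libraries, such closeness is a description of these libraries.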

How the data were processed

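RNA-seq libraries of 6 adenoma samples, 3 per genotype, were made by the authors from poly(A) RNA with a strand-specific kit and sequenced as single-end reads of 50 bases. The authors quantified them with Salmon against the GRCm38 transcriptome and deposited estimated counts per gene, not normalised; the submitters' processing notes also name DESeq2 and GRCm38.p6. These values were rounded to integers, and genes were kept with filterByExpr (minimum count 10, minimum total count 15). TMM normalisation, log2 CPM with a prior count of 2 and edgeR 4.0.16 in R 4.3.3 (robust quasi-likelihood test, Benjamini-Hochberg adjusted p, threshold 0.01) were applied to the whole table. DESeq2 1.42.0 and limma-voom of limma 3.58.1 were alternatives, as were other normalisations, filters and prior counts, a replicate block and leaving out each library; the test scripts were tested on simulated data. Symbols and exon lengths came from GENCODE M21 for 34652 of 34866 genes, and promoters from RefSeq. Protein sequences were not analysed here, and *Insm1* had no promoter window. Context genes named in the text were up to 4 of each list with the smallest unadjusted p under 0.05 and a set always given. Of the 3 genes most like each factor, all are named for *Spdef* and only the nearest for every other factor. The pancreatic, gastric and plasma cell genes named singly, *Fam241b* and *Cerkl* were added once their values were known. The members and lists were chosen with earlier results of these data known. The labels do not say whether the 3 libraries of a genotype came from separate animals, so p-values measure the spread between these libraries. Same-numbered libraries did not deviate together (correlations −0.014, 0.16 and −0.29), so the replicate numbers were not used as pairs.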

Additional observations from a re-analysis of the deposited data

How the results depend on the processing

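Of 140 refits of the 10 factors under the alternatives, 132 kept the direction and the side of the threshold, 8 reversed direction and none passed an adjusted p of 0.01. Leaving out single libraries, the log2 fold change ran from −0.50 to 0.069 for *Atoh1*, from −0.048 to 0.11 for *Foxa1* and from −0.41 to 0.12 for *Bhlha15*. The reversals were *Atoh1* (0.069 without ApcMin replicate 3, 0.079 with scaling to the 7 epithelial markers), *Bhlha15* (0.12 without Apc1322T replicate 1 and 0.12 with that scaling) and *Foxa1* (−0.036, −0.022, −0.048 and −0.025 without Apc1322T replicate 2, Apc1322T replicate 3, ApcMin replicate 1 and ApcMin replicate 2), and the cause was not tested. The epithelial scaling was chosen after seeing the data. It moved the median log2 fold change of all genes to 0.37 and the split at an unadjusted p under 0.05 from 1239 higher and 1256 lower to 3308 and 89, with *Neurog3* at 1.87, *Foxa2* at 1.62, *Insm1* at 1.02, *Neurod1* at 0.98, *Foxa1* at 0.35, *Klf4* at −0.040, *Gfi1* at −0.13 and *Spdef* at −0.18. The count of genes with an adjusted p under 0.01, 0 by edgeR, was 1 with no filter, 194 by DESeq2, 2 with the epithelial scaling, 1 without ApcMin replicate 3 and 0 without any other single library, and 1 gene had an adjusted p under 0.05. Genes at an unadjusted p under 0.05 numbered 4117 without Apc1322T replicate 1, 1180 and 1472 without Apc1322T replicates 2 and 3, and 1649 without ApcMin replicate 3, beside 2495 with all libraries. Of the factors, 2 had an unadjusted p under 0.05, against 1 by limma-voom, 1 without Apc1322T replicate 2 or ApcMin replicate 1 and 3 without ApcMin replicate 2, and of the list genes 19 against 10 without Apc1322T replicate 2 and 23 without Apc1322T replicate 1. With the replicate block, 3 factors, 15 list genes and 2113 of all genes had an unadjusted p under 0.05, and 0 genes passed 0.01. Depth limits *Neurog3*, *Neurod1* and *Insm1*, with 6 to 55 counts a library.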

Other observations

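Of 6 tested tuft cell genes, 6 were higher in ApcMin, with a median log2 fold change of 0.60. The prostaglandin synthase *Ptgs1*, counted 503, 339 and 402 times in Apc1322T and 848, 696 and 941 times in ApcMin libraries, had a log2 fold change of 0.63 ± 0.12 (adjusted p = 0.257, edgeR). Of 10 absorptive enterocyte genes, 10 were lower in ApcMin, with a median of −0.77, and *Fabp1*, the liver-type fatty acid binding protein, had the one unadjusted p under 0.05 among them (−1.32 ± 0.45; adjusted p = 0.298, edgeR). The summed absorptive genes were 16689, 29229 and 29533 CPM in Apc1322T and 10540, 21187 and 11225 CPM in ApcMin libraries, with overlap. All 7 epithelial markers had a negative log2 fold change as well (median −0.34), and *Vil1* is on both lists. Their part in the absorptive values was not tested. *Pax4*, an endocrine factor that did not pass the filter, was counted 0, 0 and 0 times in Apc1322T and 1, 1 and 7 times in ApcMin libraries.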
